A study of Mus musculus with 67 samples.

Results

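The complement genes C1qa, C1qb, C1qc, C3, Cfb, Cfp, C3ar1 and C5ar1 were followed through mouse monocyte development, in monocytes of a knockout and in transferred monocytes. They were chosen by symbol. All 8 members are listed, with 1 transcript each, among the 24421 genes of every table. RNA on oligo-dT beads was sequenced from 67 libraries of flow-sorted cells, in 28 groups and 3 tables. Mice in the 7-week table were C57BL/6. Their marrow gave 4 libraries each of MDP (progenitors of monocytes and dendritic cells), cMoP (progenitors committed to monocytes) and Ly6C- monocytes, with 3 of Ly6C+ monocytes. Their blood gave 4 libraries of Ly6C+ monocytes, 3 of the Ly6Cint class and 3 of the Ly6C- class. Ly6C is a surface antigen that is high on classical monocytes and low on patrolling monocytes. Groups of the knockout and transfer tables have 2 libraries each. In the knockout table, blood monocytes came from 16-week mice of mixed background. All 3 classes came from wt animals, but the 67 libraries include none of the Ly6C- class of ko animals. The same table has MDP, cMoP and marrow Ly6C+ cells of C57BL/6 mice at 8 weeks. Cells of the transfer table were C57BL/6 at 8 weeks: marrow Ly6C+ monocytes taken before transfer, the same kind of cells recovered as grafts at 24, 36 or 48 h in either blood or spleen, and all 3 classes of the recipients' own monocytes (hosts) in both sites. The samples' labels say only wt and ko, the series title names C/EBPb, and neither gives the allele, its promoter or whether animals were pooled. Nothing says that replicates were separate animals, so p-values measure the spread between these samples, which may be technical.

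Complement is a set of plasma and membrane proteins that mark particles for uptake and recruit leukocytes. C1q, built of the C1qa, C1qb and C1qc chains, starts the classical pathway. Cleavage of C3 is the step at which the pathways meet, factor B (Cfb) forms the alternative pathway convertase with C3b, and properdin (Cfp) stabilizes it. C3ar1 and C5ar1 are the receptors for the fragments C3a and C5a. C1q is known as a product of macrophages and other myeloid cells, and the liver makes most plasma C3.

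Promoter sequences are given for the pair of C1q chains that the table of promoters holds, which moved together below, for C3, the component that was higher in Ly6C+ than in Ly6C- cells in every table, and for C3ar1, which was higher in ko monocytes. Each is the 250 bases before the gene's start on the minus strand (RefSeq, GRCm38.p6), with matches to the searched motifs in capitals.
C1qb, chr4:136886201-136886450: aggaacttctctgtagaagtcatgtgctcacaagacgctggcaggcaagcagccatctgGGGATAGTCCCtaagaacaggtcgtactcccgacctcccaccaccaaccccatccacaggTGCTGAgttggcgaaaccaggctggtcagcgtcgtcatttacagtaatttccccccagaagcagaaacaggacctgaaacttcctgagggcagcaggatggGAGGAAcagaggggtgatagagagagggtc
C1qc, chr4:136892915-136893164: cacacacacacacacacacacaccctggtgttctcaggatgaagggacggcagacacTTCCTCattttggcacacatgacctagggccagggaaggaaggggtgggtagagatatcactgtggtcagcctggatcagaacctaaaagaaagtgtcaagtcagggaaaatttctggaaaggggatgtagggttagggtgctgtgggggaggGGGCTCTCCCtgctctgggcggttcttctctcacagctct
C3, chr17:57228137-57228386: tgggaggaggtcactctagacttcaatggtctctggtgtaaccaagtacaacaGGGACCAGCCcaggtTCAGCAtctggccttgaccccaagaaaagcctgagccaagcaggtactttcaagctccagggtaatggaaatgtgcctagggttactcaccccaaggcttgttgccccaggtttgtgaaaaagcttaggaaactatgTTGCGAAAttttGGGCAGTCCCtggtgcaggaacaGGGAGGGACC
C3ar1, chr6:122856158-122856407: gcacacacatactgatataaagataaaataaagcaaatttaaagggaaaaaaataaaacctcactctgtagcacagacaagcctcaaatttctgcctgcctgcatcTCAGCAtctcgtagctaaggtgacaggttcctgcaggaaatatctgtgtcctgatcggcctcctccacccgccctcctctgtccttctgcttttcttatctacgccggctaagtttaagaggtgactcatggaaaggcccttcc
Of the 8 members, 6 had an entry. Both strands were searched for 5 motifs. The PU.1 core GAGGAA was found in 2 of the 6 (C1qb and C1qc), against 23.4% of all 32536 promoters of this length. The C/EBP motif TTNNGCAA was found in 1 of the 6, in C3 on the minus strand with its first base at position -45, against 9.6% of all promoters. The MAF motif TGCTGA was found in 4 of the 6 (C1qb, C3, C3ar1 and C5ar1), against 16.1%. The NF-kappaB motif was found in 3 of the 6 (C1qb, C1qc and C3; GGGA, then NNNN, then CC, against 17.7%), with matches on opposite strands overlapping in C1qb, and the IRF element (GAAA, then NN, then GAAA) in 0, against 3%. A match is a description of these letters, not a site.

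Expression is given as RPM, reads scaled to a common library total of 1000000. Reads on listed genes ranged from 577690 to 3643327 per library in the 7-week table and from 942751 to 5478761 in the knockout table. They were about 502733 to 1783487 in 25 of the 26 transfer libraries, so that 1 read there is worth 0.561 to 1.99 RPM. The marrow classes of 7 weeks differed in their defining markers. The summed level of 7 Ly6C+ monocyte genes was 8291 to 10685 RPM in Ly6C+ cells and 429 to 1083 RPM in Ly6C- cells. In 8-week marrow the 8 neutrophil markers summed to 2221 to 3059 RPM in MDP and 1862 to 2810 RPM in cMoP. In the 7-week table they summed to 40.2 to 47.1 and 42.0 to 56.6 RPM. Erythroid markers summed to 1039 to 1231 RPM in 8-week and 1.54 to 76.1 RPM in 7-week marrow Ly6C+ cells. The part of either in the 8-week results was not tested. Of the targeted gene, Cebpb, wt blood libraries held 693 to 1936 RPM and ko libraries 57.2 to 186 RPM, lower in 4 of 4 ko libraries. All 8 members passed the filter on low values in all 3 tables. A gene was called at an adjusted p under 0.05 (limma, Benjamini-Hochberg over all genes tested), and log2 ratios are on the scale of log2(RPM + 1) with their SE.

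In 7-week mice C3 and Cfp rose through the marrow stages, Cfb rose at the monocyte stage, and the C1q chains had their highest means in Ly6C- cells. Between cMoP and MDP 2 of the 8 members were called (C3 and Cfp; 9.25% of the genes tested), and between marrow Ly6C+ cells and cMoP 4 of 8 (C1qb, C3, Cfb and Cfp; 37.7%). Between blood and marrow Ly6C+ cells 5 of 8 were called (26%). Within blood 3 of 8 were called between Ly6Cint and Ly6C+ cells (27.2%), 2 of 8 between Ly6C- and Ly6Cint (8.87%) and 4 of 8 between Ly6C- and Ly6C+ (20.3%). The most calls, 7 of 8, were made between marrow Ly6C- and Ly6C+ cells, where 40.1% of all genes were called, and 1 of 8 was called between marrow and blood Ly6C- cells (Cfp; 2.54%).

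**Figure D1:**
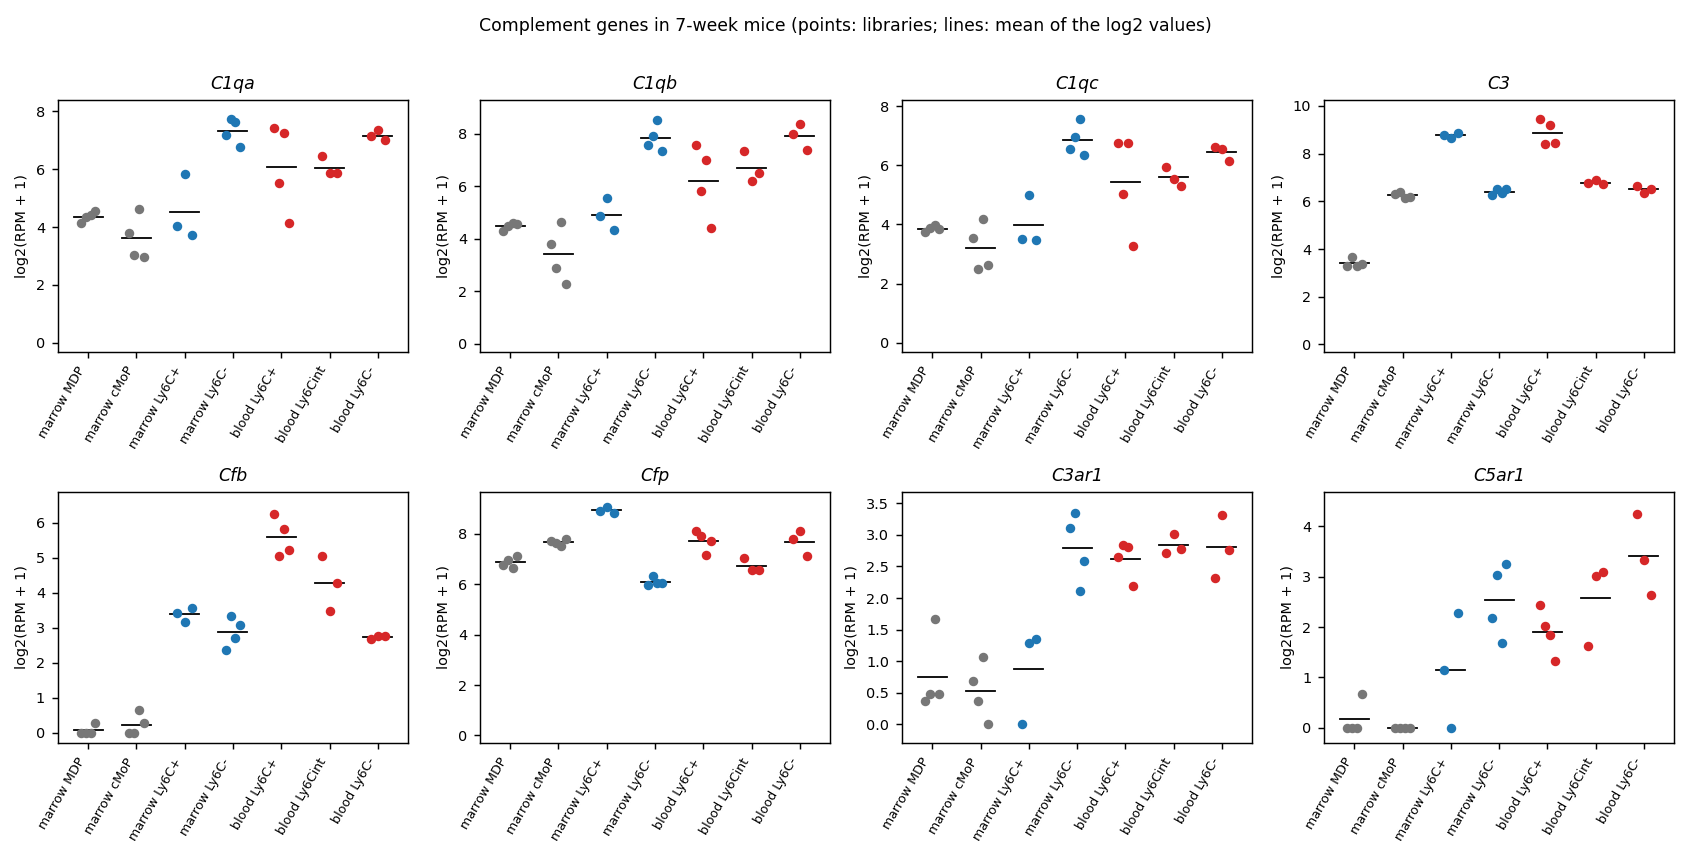
Level of each gene in every 7-week library, as log2(RPM + 1), by population (points are libraries, lines the means of the log2 values; grey progenitors, blue marrow and red blood monocytes). C3 is lowest in MDP and highest in Ly6C+ cells of both tissues, whereas the means of the C1q chains are highest in Ly6C- cells.

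In 7-week mice the means of the C1q chains were highest in Ly6C- monocytes. C1qb was at 160, 189, 244 and 367 RPM in the 4 marrow Ly6C- libraries and at 164, 256 and 330 RPM in the 3 of blood. In marrow Ly6C+ libraries it was at 19.3, 28.0 and 46.4 RPM, in MDP at 18.8 to 23.5 RPM and in cMoP at 3.83 to 24.2 RPM. Every marrow Ly6C- library thus lay above every marrow Ly6C+ library, for each of the 3 chains. The 14 tissue macrophage markers summed to 785 to 1173 RPM in marrow Ly6C- and 233 to 290 RPM in marrow Ly6C+ libraries, with 1 and 4 of them at 0 throughout. In blood the same markers summed to 731 to 1182.5 RPM in Ly6C- and 394 to 562 RPM in Ly6C+ libraries. Erythroid markers summed to 399 to 919 RPM in marrow Ly6C- and 1.54 to 76.1 RPM in marrow Ly6C+ libraries. The part of either in the result was not tested. The ratio of marrow Ly6C- to Ly6C+ cells was 2.79 ± 0.52 for C1qa (adjusted p = 8.65e-05), 2.92 ± 0.51 for C1qb (3.58e-05) and 2.86 ± 0.54 for C1qc (8.44e-05) on the log2 scale, and none of these was lost when any 1 library of the pair of groups was left out.

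In blood the chains varied most within the Ly6C+ class. C1qa was at 16.7, 45.3, 150 and 169 RPM in its 4 libraries, a 10.1-fold range, against 126 to 163 RPM in blood Ly6C- and 56.6 to 87.0 RPM in Ly6Cint cells. C1qb and C1qc spanned 9.48-fold and 12.5-fold over the same Ly6C+ libraries, while C3 spanned 2.05-fold. Groups that overlapped gave the calls here: C1qb was higher in Ly6C- than in Ly6C+ blood cells (1.70 ± 0.51, adjusted p = 0.0174), and C1qa and C1qc were higher in blood than in marrow Ly6C+ cells (1.55 ± 0.52, 0.0291, and 1.46 ± 0.54, 0.045). C1qb also rose from cMoP to marrow Ly6C+ cells (1.52 ± 0.51, adjusted p = 0.0201). These calls rested on single libraries. C1qb in blood was lost without Ly6C- replicate 2 or Ly6C+ replicate 1 (adjusted p 0.0877 and 0.0739) and with edgeR (0.0864). C1qa was lost without marrow replicate 3 or 1 or blood replicate 3 or 4 (0.122 to 0.176), and C1qc without the same libraries (0.172 to 0.186). Both were also lost with no filter on low values (0.0655 and 0.092). C1qb against cMoP was lost without Ly6C+ replicate 4 or cMoP replicate 2 or 1 (0.0604 to 0.116) and with edgeR (0.0718).

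In ko blood the C1q chains and C3ar1 were higher than in wt blood, and C5ar1 was lower. Between ko and wt Ly6C+ cells 3 of 8 members were called (C1qb, C1qc and C3ar1; 1.26% of the genes tested), and between ko and wt Ly6Cint cells 6 of 8 (C1qa, C1qb, C1qc, Cfp, C3ar1 and C5ar1; 6.33%). C1qb was at 5.17 and 6.61 RPM in wt and at 67.9 and 112 RPM in ko Ly6C+ libraries, and at 22.3 and 28.1 RPM in wt and 246 and 452 RPM in ko Ly6Cint libraries. The groups did not overlap in either class, and the lower wt values rest on 17 to 192 reads. The ratio of ko to wt was 3.69 ± 0.72 in Ly6C+ cells (adjusted p = 0.0212) and 3.68 ± 0.72 in Ly6Cint cells (0.0058).

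C1qc was at 0.881 and 1.22 RPM in wt Ly6C+ libraries, which is 4 reads in each, against 15.7 and 28.6 RPM in ko (3.44 ± 0.73, adjusted p = 0.0319). In Ly6Cint cells it was at 7.94 and 11.1 RPM in wt and 49.7 and 132 RPM in ko (2.98 ± 0.73, 0.0236). C1qa, at 1.89 and 14.9 RPM in wt and 57.1 and 128 RPM in ko Ly6Cint cells, gave 3.67 ± 0.88 (0.0208). Its ratio in Ly6C+ cells, 2.28 ± 0.88, was not called (0.348). The difference between both classes in the effect of the genotype was called for 0 of 8 members and for 0.00878% of all genes (limma). At an unadjusted p under 0.05 it was found for 0 of the 8, and edgeR called 0.

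**Figure D2:**
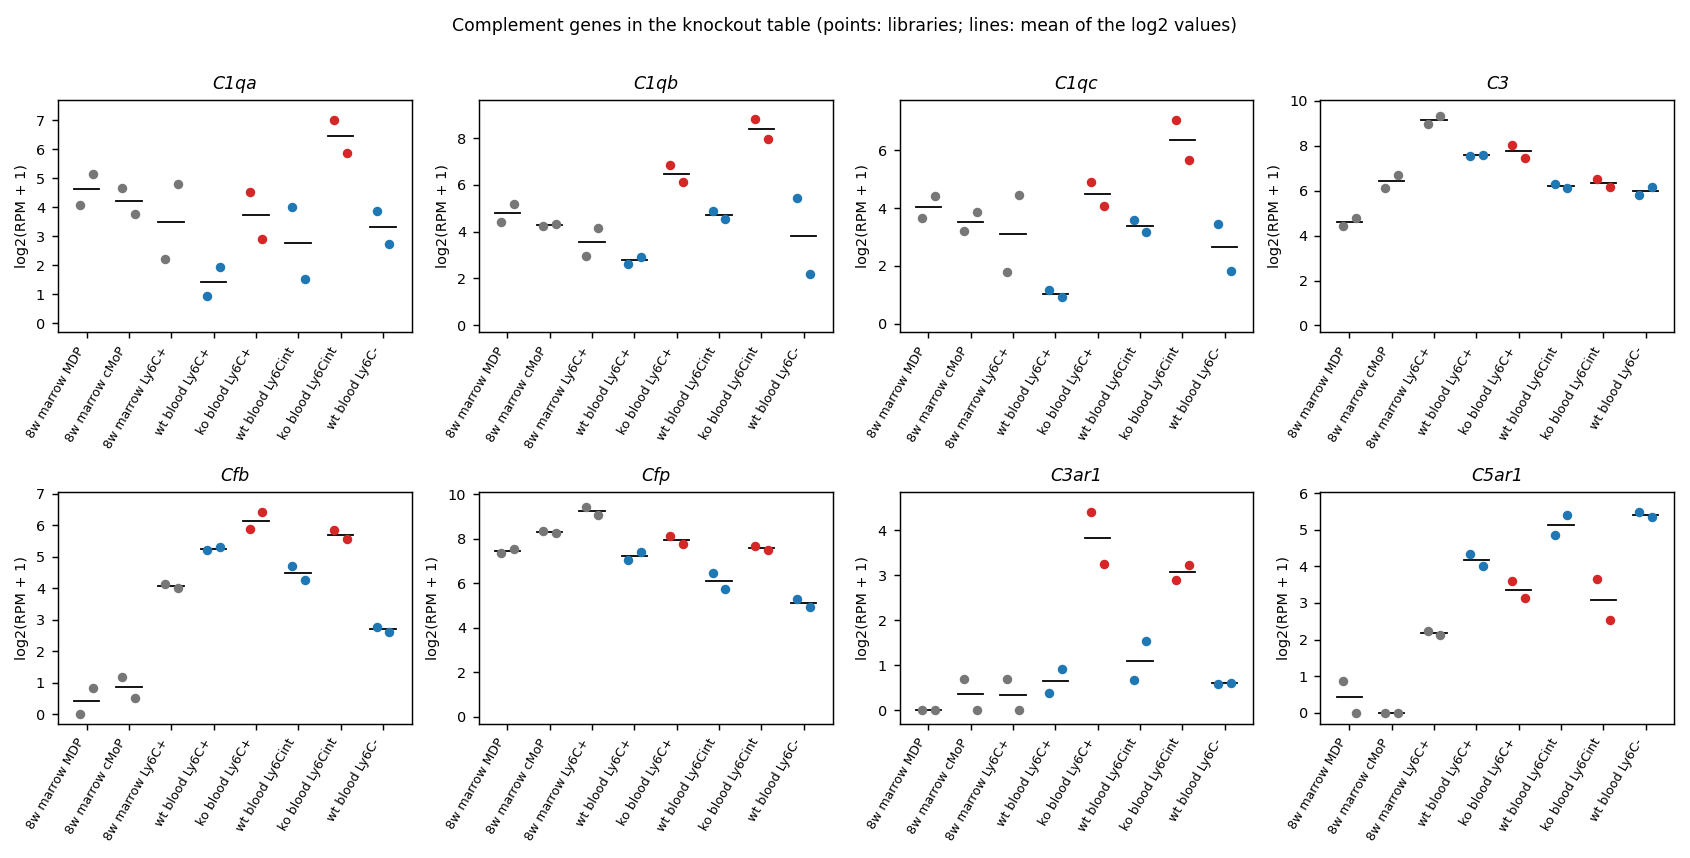
Level of each gene in every library of the knockout table, as log2(RPM + 1), with n = 2 per group (points are libraries, lines the means of the log2 values; grey marrow, blue wt blood, red ko blood). The ko libraries lie above wt of the same class for the C1q chains, Cfb, Cfp and C3ar1 and below it for C5ar1.

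With 2 libraries per group these calls depended on single libraries and on the spread borrowed from the other groups. In Ly6C+ cells the C1qb and C1qc calls were lost without any 1 of the 4 libraries (adjusted p 0.0694 to 0.238 and 0.0962 to 0.301) and with edgeR on recovered reads (0.102 and 0.113). In Ly6Cint cells C1qb was lost without ko replicate 2 (0.091), C1qa without wt replicate 2, ko replicate 2 or ko replicate 1 (0.0517 to 0.208) and C1qc without wt replicate 1 or 2 or ko replicate 2 (0.0627 to 0.268). Fitted on the 4 compared libraries alone, 0 of 8 members were called in either class. That fit leaves each log2 ratio as it was and changes only the estimate of its spread. In Ly6Cint cells C1qa was also lost with edgeR (adjusted p = 0.101). With no filter on low values C1qa and C1qc were lost in Ly6Cint cells (0.0535 and 0.0581), and C1qb and C1qc in Ly6C+ cells (0.054 and 0.0763).

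Markers of tissue macrophages were read beside these values, since such cells hold much C1q. Their 14 genes summed to 422 to 427 RPM in ko and 343 to 435 RPM in wt Ly6Cint libraries, and to 418 to 479 and 344 to 384 RPM in ko and wt Ly6C+ libraries. In each of these ko and wt groups 5 of the 14 were at 0 in both libraries. Timd4, Marco, Cd5l and Slc40a1 were at 0 in all 4 ko libraries and at 0 to 0.667 RPM in wt blood. Vcam1, an adhesion molecule of splenic macrophages, was at 0 in 3 ko libraries and at 0.65 RPM in the other, with 0 in wt blood. Other genes of the same list, the scavenger and efferocytosis receptors Cd163, Mrc1 and Axl, were higher in ko. They were at 9.74 to 27.9, 26.6 to 36.5 and 54.8 to 160.3 RPM in ko Ly6C+ and Ly6Cint libraries. In wt libraries of these classes they were at 1.22 to 3.22, 3.22 to 8.21 and 15.2 to 34.0 RPM. The markers named are a part of the list, and the part of such cells in the result was not tested. The summed markers of conventional dendritic cells were at 138 and 184 RPM in ko and 39.8 and 44.3 RPM in wt Ly6Cint cells, and their part in the result was not tested.

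For the C1q chains the order of the classes was not the same in every tissue and table. In host blood the means of all 3 chains, which vary together, were lower in Ly6C- than in Ly6C+ cells. C1qb was at 81.9 and 107 against 146 and 234 RPM, but none of the 3 was called (adjusted p 0.778 or higher). In host spleen the order was that of 7-week mice for C1qa and C1qb. C1qa was at 18.8 and 30.2 RPM in Ly6C- and 5.26 and 8.76 RPM in Ly6C+ cells. C1qb was at 38.1 and 41.2 against 11.0 and 21.9 RPM. C1qc overlapped, at 9.20 and 14.9 against 0.877 and 12.3 RPM, and no chain was called there either. In wt blood C1qb averaged 25.2 RPM in Ly6Cint and 22.7 RPM in Ly6C- cells, whose libraries lay far apart at 3.60 and 41.8 RPM. Wt blood of the knockout table held little C1q beside 7-week blood. C1qa averaged 1.89 RPM in wt Ly6C+, 8.41 in Ly6Cint and 9.66 in Ly6C- cells, against 95.3, 66.8 and 143 RPM in the same classes of 7-week blood. The mice differ in age and background and the libraries lie in different tables, so these levels were not tested against each other.

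C1qa and C1qc were higher in spleen grafts than in blood grafts. Between graft spleen and graft blood over the 3 times 2 of 8 members were called (C1qa and C1qc; 3.78% of the genes tested). C1qa was at 28.5 and 115 RPM in spleen grafts at 24 h, at 215 and 823 RPM at 36 h and at 0 and 14.9 RPM at 48 h. In blood grafts it was at 1.31 and 13.6, at 0 and 1.31, and at 0 and 7.01 RPM at the same times. For C1qa the spleen grafts of 36 h were above every other library of the table. For C1qb 1 of them, at 259 RPM, was below a host blood Ly6Cint library at 398 RPM. No chain was called between 36 h and 24 h (adjusted p 0.474 to 0.543) or between 48 h and 24 h (0.105 to 0.228) in spleen. The ratio of spleen to blood was 3.98 ± 0.72 for C1qa (adjusted p = 0.00326) and 3.88 ± 0.73 for C1qc (0.00479). C1qb, at 2.43 ± 0.80, was not called (0.0906). Without the grafts of 36 h, an alternative chosen after seeing the data, 0 of 8 were called, and the ratios were 1.91 for C1qa (0.259) and 2.36 for C1qc (0.173).

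Some macrophage genes were high in the graft libraries with the most C1q, while the sum over the marker list did not follow C1q at 48 h. Over the whole list of 14 markers the sum was 2187 and 3814 RPM in the 36 h spleen grafts, 1259 and 1594 RPM at 24 h, 1759 and 1763 RPM at 48 h and 671 to 1511 RPM in blood grafts. The number of the 14 markers at 0 in both libraries was 0 at 36 h, 1 at 24 h and 6 at 48 h. Vcam1 was at 160 and 443 RPM in the 36 h spleen grafts, at 18.4 and 192 RPM at 24 h, at 0 and 28.0 RPM at 48 h and at no more than 1.75 RPM in blood grafts. Cd5l, a secreted protein of splenic and liver macrophages, was at 31.1 and 201 RPM at 36 h, at 10.1 and 57.4 RPM at 24 h and at 0 in both libraries of 48 h. Spic, a transcription factor of red pulp macrophages, was at 130 and 242 RPM at 36 h in spleen but also at 43.4 and 52.6 RPM in the blood grafts of 36 h and at 0 and 52.6 RPM in those of 48 h. Vcam1, Cd5l, Spic and the iron exporter Slc40a1 were chosen after their values were seen. In the 36 h spleen library with the most C1q, replicate C, the B cell markers summed to 694 RPM and the platelet markers to 1215 RPM. In bulk RNA more cells of another type and more RNA per cell cannot be told apart, and the part of such cells in the C1q values was not tested. Blood was sorted after a ficoll gradient and spleen after red cell lysis, so the organ and the preparation cannot be told apart.

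**Figure D3:**
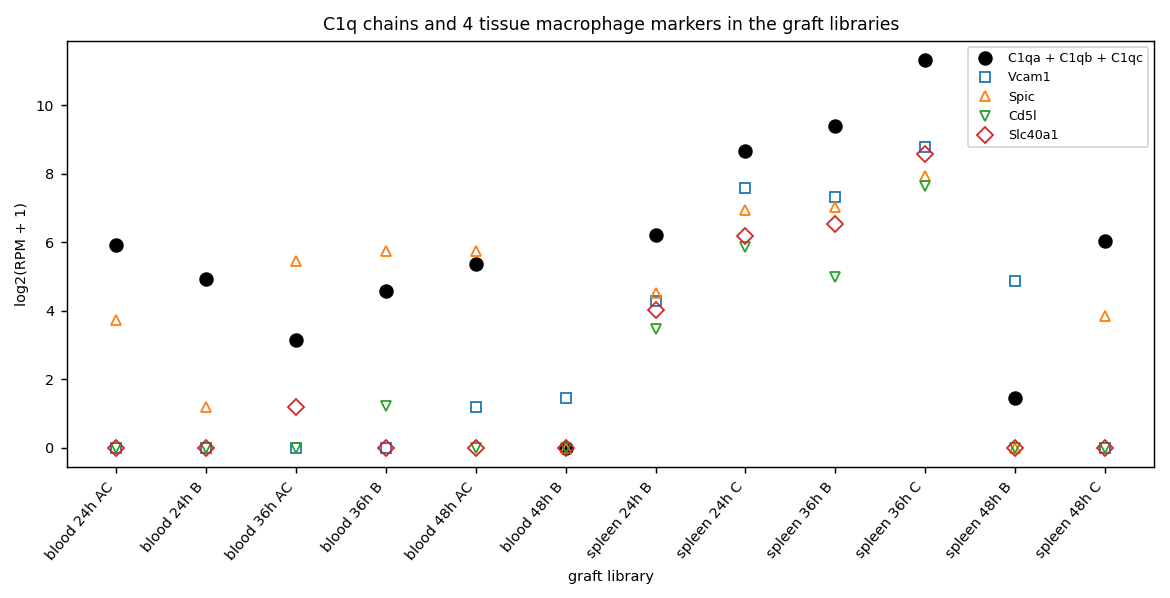
Summed level of the 3 C1q chains (filled circles) and of 4 macrophage genes (open symbols) in the 12 graft libraries, as log2(RPM + 1). The spleen libraries of 36 h and spleen 24 h replicate C hold the most C1q and also the most Vcam1.

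Host monocytes, all sampled at 24 h, have no match for the 36 h grafts. C1qa averaged 7.01 RPM in Ly6C+, 41.9 RPM in Ly6Cint and 24.5 RPM in Ly6C- cells of host spleen, against 76.5, 59.8 and 23.4 RPM in host blood. The host spleen Ly6Cint libraries, at 22.8 and 60.9 RPM, overlapped the spleen grafts of 24 h. Between host spleen and host blood 0 of 8 members were called (limma; 0.852% of the genes tested), with 3 of 8 at an unadjusted p under 0.05. The log2 ratio of C1qc was -2.14 ± 0.73 (adjusted p = 0.268).

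C3 was higher in Ly6C+ than in Ly6C- monocytes in each table. It was at 8.65 to 11.6 RPM in the 4 MDP libraries, at 69.8 to 82.3 RPM in cMoP and at 399, 440 and 462 RPM in marrow Ly6C+ cells. None of these groups overlapped, and the steps were 2.86 ± 0.18 (adjusted p = 9.1e-13) and 2.51 ± 0.19 (1.11e-11) on the log2 scale. In the 8-week marrow the same steps were 1.80 ± 0.25 (0.000715) and 2.72 ± 0.25 (1.7e-06). There 1 of 8 members was called between cMoP and MDP (4.85% of the genes tested) and 4 of 8 between Ly6C+ cells and cMoP (C3, Cfb, Cfp and C5ar1; 36.8%). Blood Ly6C+ cells, at 339 to 693 RPM, did not differ from marrow Ly6C+ cells beyond their spread (0.11 ± 0.19, adjusted p = 0.724).

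In Ly6C- cells C3 was lower in all 5 comparisons with Ly6C+ cells of the same tissue. It was at 80.3, 89.2 and 100 RPM in 7-week blood Ly6C- cells and at 75.5 to 89.6 RPM in marrow Ly6C- cells, and the ratios were -2.37 ± 0.19 (adjusted p = 1.63e-10) and -2.36 ± 0.19 (5.34e-11). Blood Ly6Cint cells, at 105 to 116 RPM, were already lower than Ly6C+ cells (-2.08 ± 0.19, 7.11e-09) and did not differ from Ly6C- cells by the test (-0.29 ± 0.20, 0.399). In wt 16-week blood, where 3 of 8 members were called between Ly6C- and Ly6C+ cells (C3, Cfb and Cfp; 10.5% of the genes tested), C3 went from 188 and 193 RPM in Ly6C+ to 55.2 and 69.8 RPM in Ly6C- cells (-1.60 ± 0.25, 0.000612).

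Between wt Ly6Cint and Ly6C+ cells 2 of 8 were called (C3 and Cfp; 4.29%), C3 at -1.36 ± 0.25 (adjusted p = 0.00502, and 0.064 without Ly6C+ replicate 1). Among hosts 2 of 8 were called in blood (C3 and Cfb; 3.66%) and 1 of 8 in spleen (C3; 2.77%). C3 was at 205 and 233 RPM in host blood Ly6C+ and 69.2 and 75.8 RPM in Ly6C- cells (-1.58 ± 0.39, 0.0212), and at 273 and 303 RPM against 55.6 and 61.4 RPM in host spleen (-2.28 ± 0.39, 0.000814). The host blood call was lost without any 1 of its 4 libraries (0.0959 to 0.197), while the host spleen call held without each of its 4 in turn.

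**Figure D4:**
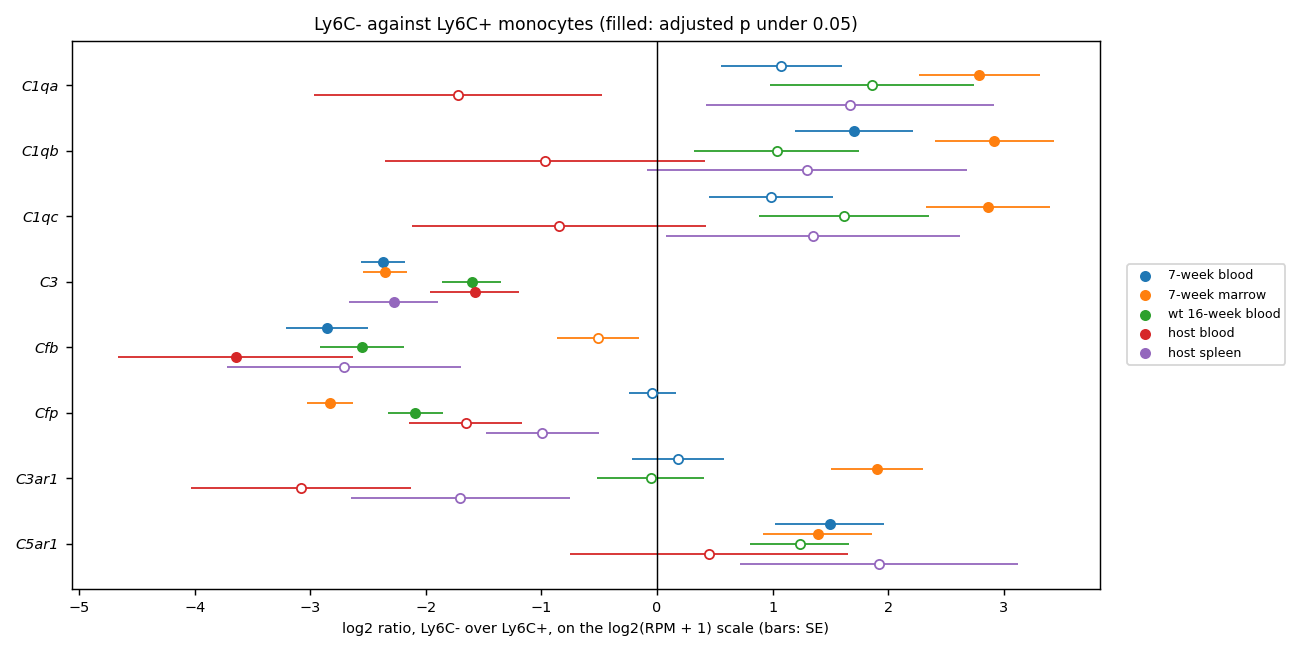
Log2 ratio of Ly6C- to Ly6C+ monocytes for each gene in 5 tissues or mouse groups, on the log2(RPM + 1) scale with SE bars (filled points have an adjusted p under 0.05). C3 lies between -2.37 and -1.58 in all 5, while Cfp ranges from -2.83 in 7-week marrow to -0.04 in 7-week blood.

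Grafted cells lost C3 within 24 h. C3 was at 430 and 439 RPM in marrow Ly6C+ cells before transfer, at 99.5 and 163 RPM in blood grafts and at 117 and 194 RPM in spleen grafts of 24 h. At 24 h 2 of 8 members were called against the cells before transfer in blood (13.3% of the genes tested) and 2 of 8 in spleen (5.8%), C3 and Cfp in both. Both comparisons use the same cells before transfer. The ratios of C3 were -1.76 ± 0.39 in blood (adjusted p = 0.00358) and -1.52 ± 0.39 in spleen (0.0188). The spleen call was lost without spleen replicate B or either library from before transfer (0.137 to 0.147). By 48 h C3 stood at 53.5 and 67.9 RPM in blood and 55.7 and 89.0 RPM in spleen, with ratios to 24 h of -1.07 ± 0.39 (0.0982) and -1.09 ± 0.39 (0.146). C3 was not called between ko and wt, with ratios of 0.17 ± 0.25 in Ly6C+ (adjusted p = 0.97) and 0.14 ± 0.25 in Ly6Cint cells (0.858).

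Factor B marked the monocyte stage. At 7 weeks Cfb had 0 reads in all MDP libraries but 1, which had 1 read, and 0 to 2 reads in cMoP. It was at 7.97, 9.73 and 10.8 RPM in marrow Ly6C+ cells and at 32.3 to 74.8 RPM in blood Ly6C+ cells. The rise from cMoP was 3.16 ± 0.35 (adjusted p = 2.69e-08) and that from marrow to blood 2.20 ± 0.35 (1.91e-05), and neither pair of groups overlapped. In 8-week marrow the rise from cMoP was 3.22 ± 0.36 (1.06e-05).

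Cfb then fell along the blood series. It was at 10.1, 18.4 and 32.0 RPM in Ly6Cint and at 5.34, 5.78 and 5.79 RPM in Ly6C- cells, below every Ly6C+ library. The ratios were -1.32 ± 0.35 for Ly6Cint to Ly6C+ (adjusted p = 0.00681), -1.53 ± 0.38 for Ly6C- to Ly6Cint (0.0128) and -2.86 ± 0.35 for Ly6C- to Ly6C+ cells (4.42e-07). The first was lost without Ly6Cint replicate 2 (0.0747) and the second without Ly6Cint replicate 3 or Ly6C- replicate 3 (0.072 and 0.0585). In marrow the classes did not differ by the test, with 4.1 to 9.15 RPM in Ly6C- cells (-0.51 ± 0.35, 0.261). The wt 16-week series fell likewise, from 35.9 and 38.1 RPM in Ly6C+ to 18.2 and 25.2 RPM in Ly6Cint and 5.14 and 5.83 RPM in Ly6C- cells (Ly6C- to Ly6C+ -2.55 ± 0.36, 0.000255). Between wt Ly6C- and Ly6Cint cells 1 of 8 members was called (0.448%), Cfb at -1.79 ± 0.36 (0.0424), a call lost without any 1 of the 4 libraries (0.0651 to 0.3).

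Hosts and grafts gave wider values for Cfb. Host blood held 39.4 and 43.4 RPM in Ly6C+ and 1.31 and 3.94 RPM in Ly6C- cells (-3.65 ± 1.01, adjusted p = 0.0469, and 0.134 to 0.356 without any 1 library). Host spleen held 35.0 and 42.1 against 4.82 and 5.26 RPM (-2.71 ± 1.01, 0.256, not called). Between blood grafts of 48 h and 24 h 1 of 8 members was called (8.09% of the genes tested): Cfb was at 21.9 and 85.9 RPM at 24 h, at 12.3 and 31.1 RPM at 36 h and at 0 and 9.64 RPM at 48 h (-3.77 ± 1.01, 0.024). That call was lost without 24 h replicate B (0.148) or 48 h replicate B (0.247). Between spleen grafts of 48 h and 24 h 0 of 8 were called (limma; 2.41%), with 5 of 8 at an unadjusted p under 0.05. The difference between both organs in the change from 24 h to 48 h was called for 0 of 8 (limma; 2.63%; 0 at an unadjusted p under 0.05).

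Properdin was highest in marrow Ly6C+ cells. Cfp was at 98.2 to 137 RPM in MDP, at 185 to 222 RPM in cMoP and at 457, 482 and 534 RPM in marrow Ly6C+ cells, 3 groups that did not overlap (0.80 ± 0.19, adjusted p = 0.00385, and 1.27 ± 0.20, 1.12e-05). Blood Ly6C+ cells held 142 to 274 RPM (-1.21 ± 0.20, 3.41e-05). Per kilobase of transcript Cfp was the most abundant of the 8 in marrow Ly6C+ cells, at 300 RPM per kb, followed by C3 at 84.5 and C1qb at 28.7.

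Ly6C- and Ly6C+ cells were called different in marrow but not in blood. Cfp was at 62.7 to 79.1 RPM in marrow Ly6C- cells, below every Ly6C+ library there (-2.83 ± 0.20, adjusted p = 4e-12), and at 140, 221 and 276 RPM in blood Ly6C- cells, which overlapped blood Ly6C+ cells (-0.04 ± 0.20, 0.916). Blood Ly6Cint cells were lower than both, at 93.1 to 130 RPM (-1.002 ± 0.20 against Ly6C+, 0.000642). The ratio of Ly6C- to Ly6Cint cells was 0.96 ± 0.22 (0.00744, and 0.0728 without Ly6C- replicate 2). Marrow Ly6C- cells were lower than blood Ly6C- cells (-1.57 ± 0.20, 1.23e-05). The difference of the class effect between marrow and blood, a comparison chosen after seeing the data, was called for 3 of 8 members (17.8% of the genes tested): Cfp at -2.79 ± 0.29 (1.38e-07), Cfb at 2.34 ± 0.50 (0.0013) and C3ar1 at 1.72 ± 0.56 (0.0323). The C3ar1 call was lost without marrow Ly6C- replicate 3 or 2, marrow Ly6C+ replicate 3, blood Ly6C- replicate 3 or blood Ly6C+ replicate 4 (0.0542 to 0.133), with edgeR (0.0507), with no filter (0.0522) and with only the compared libraries (0.0859).

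In wt 16-week blood, unlike 7-week blood, Cfp was lower in Ly6C- cells. It went from 130 and 167 RPM in Ly6C+ through 53.3 and 87.7 RPM in Ly6Cint to 29.3 and 38.8 RPM in Ly6C- cells (Ly6C- to Ly6C+ -2.09 ± 0.24, adjusted p = 3.44e-05). The difference between these 2 blood series lies across tables and was not tested. The step to Ly6Cint, -1.09 ± 0.24 (0.0154), was lost without Ly6C+ replicate 1 (0.196) or Ly6Cint replicate 2 (0.0803). In ko Ly6Cint cells Cfp was at 178 and 200 RPM, above both wt libraries (1.45 ± 0.24, 0.00186), and was called without each of the 4 libraries in turn. In ko Ly6C+ cells the ratio was 0.73 ± 0.24 (0.216, not called). The ratio of Cfp in 8-week marrow Ly6C+ cells to cMoP was 0.92 ± 0.24 (0.00718, and 0.0698 without Ly6C+ replicate 1).

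After transfer Cfp fell with C3. It was at 450 and 518 RPM before transfer, at 80.6 and 92.5 RPM in blood grafts and at 67.9 and 70.1 RPM in spleen grafts of 24 h (-2.47 ± 0.49, adjusted p = 0.00149, and -2.79 ± 0.49, 0.000751). Blood grafts stayed at 78.4 and 79.8 RPM at 36 h, while spleen grafts were at 193 and 533 RPM, in the libraries with the most C1q and macrophage markers. Between spleen grafts of 36 h and 24 h, a comparison chosen after seeing the data, 1 of 8 members was called (0.579% of the genes tested), Cfp at 2.20 ± 0.49 (0.0406). That call was lost without 24 h replicate B (0.0572), 24 h replicate C (0.249) or 36 h replicate C (0.371). Between blood grafts of the same times, likewise chosen after seeing the data, 0 of 8 were called (limma; 3.21%; 0 at an unadjusted p under 0.05). At 48 h Cfp was at 44.7 and 71.9 RPM in spleen.

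**Figure D5:**
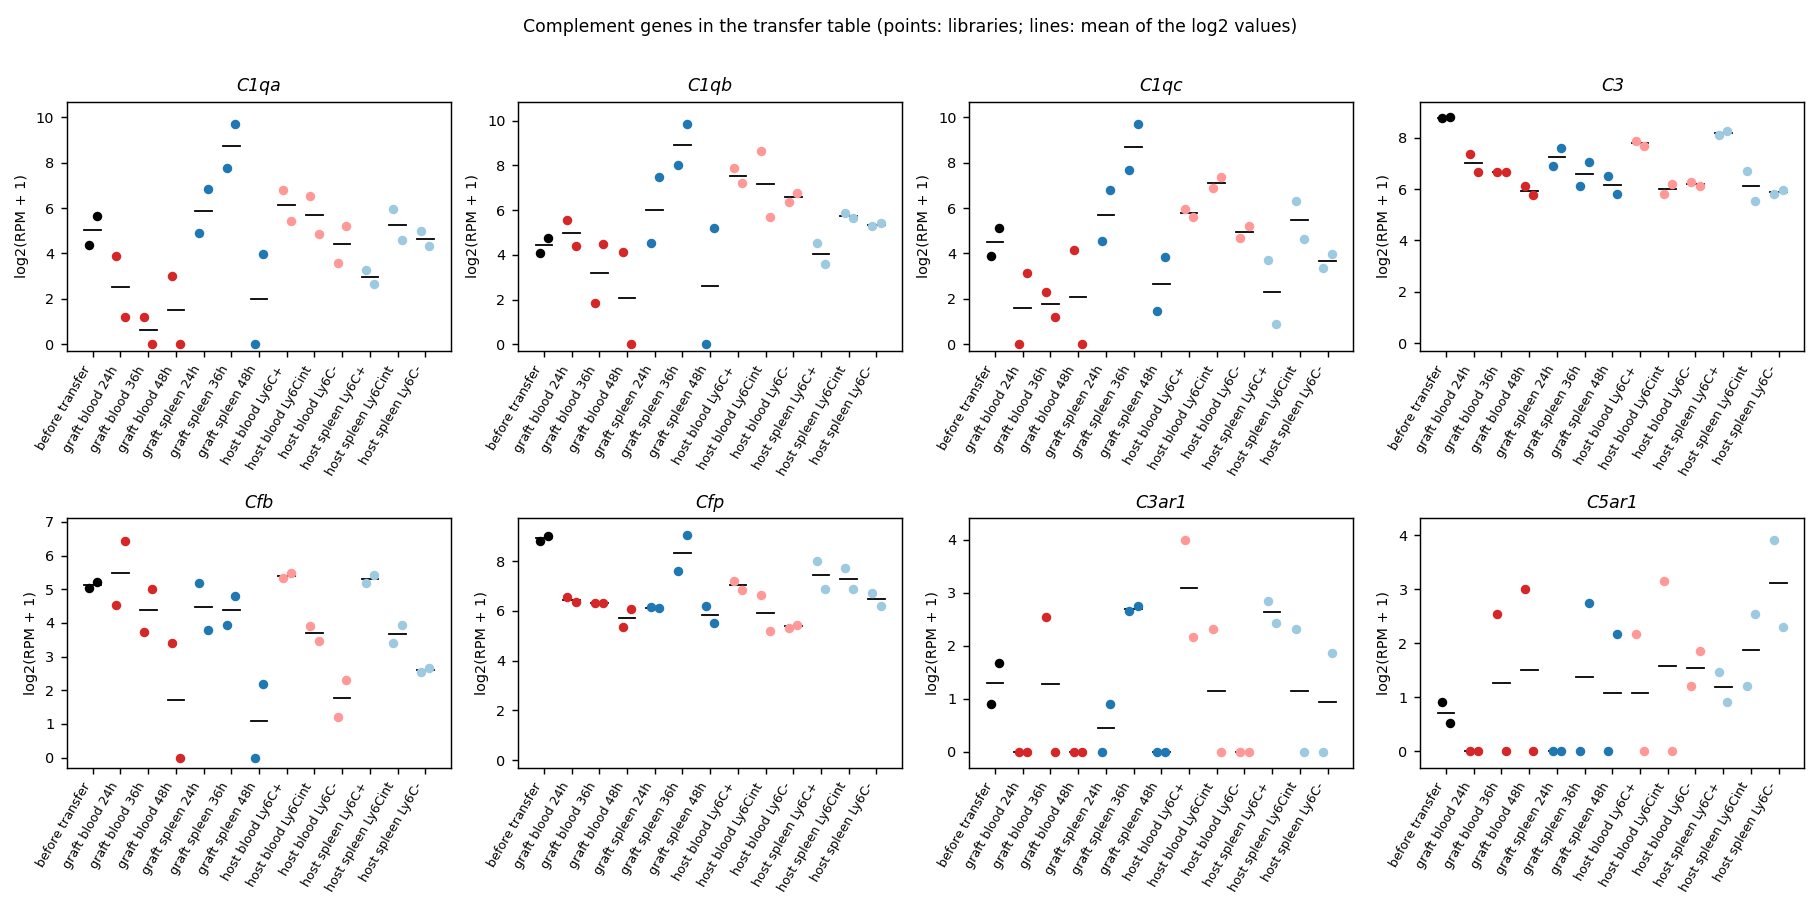
Level of each gene in every transfer library, as log2(RPM + 1), with n = 2 per group (points are libraries, lines the means of the log2 values; black before transfer, red and blue grafts from blood and spleen, pale red and pale blue hosts). C3 and Cfp lie lower in the 24 h grafts of both organs than before transfer, and the C1q chains peak in spleen grafts of 36 h.

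Of the anaphylatoxin receptors, C3ar1 was low in all cells and rested on few reads. C3ar1 was at 0.285 to 2.16 RPM in MDP, at 0 to 1.1 RPM in cMoP and at 0, 1.45 and 1.54 RPM in marrow Ly6C+ cells. It was at 3.34 to 9.15 RPM in marrow Ly6C- cells and at 3.54 to 9 RPM in all 10 blood libraries. Marrow Ly6C+ cells were below the marrow Ly6C- cells and the blood Ly6C+ cells with no overlap (1.91 ± 0.40, adjusted p = 0.000302, and 1.74 ± 0.40, 0.0015). The 3 blood classes overlapped, with a ratio of Ly6C- to Ly6C+ of 0.18 ± 0.40.

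In ko blood C3ar1 was at 8.48 and 20.1 RPM in Ly6C+ and at 6.44 and 8.33 RPM in Ly6Cint cells. In wt blood it was at 0.304 and 0.881 RPM, or 1 and 4 reads, in Ly6C+ and at 0.585 and 1.89 RPM, or 4 and 5 reads, in Ly6Cint cells. The ko values lie above the wt values with 13 to 35 reads, and the ratios were 3.18 ± 0.46 (adjusted p = 0.00249) and 1.96 ± 0.46 (0.0188). The first was lost without wt replicate 2 (0.0632) or ko replicate 2 (0.0518) and was called by edgeR. The second was lost without wt replicate 1, ko replicate 2 or ko replicate 1 (0.0896 to 0.153). In the transfer table C3ar1 was at 0 to 14.9 RPM, and 4 groups held 0 reads in both libraries, which allows 3.58 to 5.35 RPM per library (3 reads, counting error only).

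C5ar1 was lower in ko than in wt Ly6Cint cells. It was at 28.1 and 41.2 RPM in wt and at 4.76 and 11.5 RPM in ko Ly6Cint cells (-2.04 ± 0.43, adjusted p = 0.00919), and at 15.2 and 19.2 RPM in wt and 7.83 and 11.0 RPM in ko Ly6C+ cells (-0.81 ± 0.43, 0.609, not called). The groups did not overlap in either class. The Ly6Cint call was lost without wt replicate 2 (0.0654) or ko replicate 1 (0.129). C3ar1 and C5ar1 thus stood on opposite sides of wt in the same ko libraries. The ko and wt gates also differed in the 8 markers of Ly6C- monocytes, which summed to 1817 to 2286 RPM in ko and 5943 to 6744 RPM in wt Ly6Cint libraries, and to 833 to 1002 RPM and 1614 to 1807 RPM in Ly6C+ libraries. C5ar1 itself was at 39.5 and 43.7 RPM in wt Ly6C- cells, and the part of this difference in the ko results was not tested.

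Through development C5ar1 had few or no reads before the monocyte stage. It was at 0.591 RPM in 1 of the 4 MDP libraries of 7 weeks and at 0 in the others. In 7-week cMoP it had 0 reads in 4 of 4 libraries, which allows 0.604 to 0.909 RPM per library, and in 8-week cMoP 0 reads in both, which allows 1.31 to 1.87 RPM. Marrow Ly6C+ cells held 0, 1.22 and 3.86 RPM at 7 weeks and 3.33 and 3.68 RPM at 8 weeks. The mean of the 8-week Ly6C+ cells was 2.2-fold a floor of 3 reads per cMoP library, with the counting error of the Ly6C+ reads left out. The 8-week step was called (adjusted p = 0.00117). In 7-week blood C5ar1 was at 1.52 to 4.4 RPM in Ly6C+, 2.09 to 7.51 RPM in Ly6Cint and 5.21, 9 and 18 RPM in Ly6C- cells (Ly6C- to Ly6C+ 1.49 ± 0.47, 0.0234). In marrow the ratio of Ly6C- to Ly6C+ was 1.39 ± 0.47 (0.0191). The blood call was lost without Ly6C- replicate 3 or 2 or Ly6C+ replicate 1 (0.0541 to 0.149), and the marrow call without Ly6C- replicate 2 or 1 or Ly6C+ replicate 4 (0.0567 to 0.21).

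Across libraries the C1q chains varied together. Pearson r of log2(RPM + 1) between chains was 0.97 to 0.99 over the 25 libraries of the 7-week table, 0.77 to 0.92 over the 16 of the knockout table and 0.80 to 0.88 over the 26 of the transfer table. Within groups it was 0.92 to 0.97, 0.63 to 0.79 and 0.53 to 0.80. C1qa with C3 gave 0.24, -0.25 and 0.14 in the 3 tables. C1qa with C3ar1 gave 0.84, 0.29 and 0.47 and with C5ar1 0.73, -0.39 and 0.27, so in the 7-week table the receptors varied with the chains as well. These are descriptions over libraries that share depth and scaling. The proportions of the chains differed between groups. Per kilobase of transcript ko Ly6Cint cells held 321 RPM per kb of C1qb, 89.0 of C1qa and 75.6 of C1qc. Spleen grafts of 36 h held 537, 499 and 430 RPM per kb, and cells before transfer 19.3, 33.3 and 19.9, in the same order.

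The genes most like each member differed by table. Over the 7-week libraries C1qa was most like Abhd12 (r = 0.91), C3 like F10, coagulation factor X (0.97), Cfb like Alox5ap (0.96) and Cfp like Rac1 (0.91). Over the knockout libraries C3ar1 was most like Folr2 (0.94), a folate receptor, and then Ifi44 (0.93), and Cfb like Zcchc24, Stat2 and Oas2 (each 0.98), the latter pair interferon-response genes. Over the transfer libraries C3 was most like Hp, haptoglobin (0.91), and Cfb like Bst2 (0.91). C3 was like Pik3r6 in both the 7-week (0.97) and the knockout table (0.94), over 7383 and 7635 genes searched.

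Of 45 other complement genes 18, 16 and 23 passed the filter in the 7-week, knockout and transfer tables. From cMoP to marrow Ly6C+ cells 6 of 18 rose and 5 fell, where 37.7% of all genes were called. Itgam and Itgb2, the chains of complement receptor 3, rose by 3.81 ± 0.17 and 3.17 ± 0.19, and Lrp1, an endocytic receptor, by 2.86 ± 0.19, while the C1q-binding proteins Calr and C1qbp fell by 2.68 ± 0.24 and 2.64 ± 0.22 on the log2 scale. Between blood Ly6C- and Ly6C+ cells 4 of 18 were higher and 3 lower (20.3% of all genes called): Itgax, a chain of complement receptor 4, was higher by 5.28 ± 0.33, and Fcnb (ficolin B) and Cd93 fell by 2.60 ± 0.36 and 1.92 ± 0.36.

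In ko Ly6Cint cells 5 of 16 other complement genes were higher than in wt and 1 lower (6.33% of all genes called). Cd93 was at 89.5 against 12.2 RPM (3.02 ± 0.45), C4b, the component after C1q in the classical pathway, at 6.11 against 0.585 RPM (2.26 ± 0.54), and Fcna (ficolin A) at 8.33 against 1.76 RPM (1.79 ± 0.47). C1qbp and Calr were higher by 1.12 ± 0.26 and 0.87 ± 0.21, and Itgb2 fell by 0.74 ± 0.16. In ko Ly6C+ cells 0 of 16 were called (limma), with 3 at an unadjusted p under 0.05. In spleen grafts 3 of 23 were higher than in blood grafts and 0 lower (3.78% of all genes called): Fcna at 127 against 1.02 RPM (5.26 ± 0.60), and C6 and Clu, which were at 8.91 and 8.4 RPM in spleen and at 0 in all 6 blood libraries. Whether these ko and graft calls hold without single libraries or without the grafts of 36 h was not tested.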

How the data were processed

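Each library was deposited as 1 normalized value per gene, and the members and gene lists were chosen with earlier results of these data known. bcl2fastq, HISAT 0.1.5, SAMtools, HOMER and mm9 are named per the submitters' processing notes, while the counting options and annotation are not given in the sources used here. In the 7-week and knockout tables the values deposited by the authors are a signal scaled to a total taken to be 10000000, the usual HOMER output, and were divided to RPM. There all values gave whole reads within 0.1 read. The transfer values deposited by the authors are a score whose scaling is not given in the sources used here, and were scaled to their column sum, so RPM is not comparable between tables. In 25 of its 26 libraries 98.3% to 100% of the values up to 600 were rounded multiples of 1 step, which gave the reads.

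Genes with 2 RPM in at least 3 (7-week) or 2 libraries were tested, 11373, 11388 and 12096 by table. All libraries of a table entered 1 limma (3.58.1, R 4.3.3) fit with a trend on log2(RPM + 1), and p-values were adjusted by Benjamini-Hochberg over all genes tested. The script was tested on simulated data. Alternatives were pseudocounts of 0.5 and 4 RPM, no filter or 5 RPM, quantile normalization, scaling to the listed genes, edgeR 4.0.16 on recovered reads, a replicate block, the compared libraries alone and each library left out. Of 28 comparisons 3 were added after seeing the data. All 8 members are reported in every comparison by values or counts. Other complement genes are named by smallest p, at most 6 a comparison. The genes most like a member are the top 3 by Pearson r among genes with a group mean of at least 20 RPM. Counting error only is covered by limits from 0 reads. Markers served to check the labels. Promoters came from RefSeq (GRCm38.p6), not the mm9 of the reads.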

Additional observations from a re-analysis of the deposited data

Results flagged for a closer look

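In 3 of 32 sets of 4 libraries, each set being 1 member in 1 group, a single library stood apart by Dixon's criterion. Chance gives this in about 1 of 20 for normally distributed values, which sets of mostly 0 reads are not. All 3 were MDP libraries at low values: Cfb at 0.197 RPM in replicate 1 against 0 in the others, C5ar1 at 0.591 RPM in replicate 1 against 0 in the others, and C3ar1 at 2.16 RPM in replicate 4 against 0.285 to 0.394 RPM.

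The log2 ratio of Ly6C- to Ly6C+ cells differed between marrow and blood of 7-week mice for 3 members by the test of the difference itself (limma). Cfb differed by 2.35 (adjusted p = 0.0013), with -0.51 in marrow and -2.86 in blood. Cfp differed by -2.79 (1.38e-07), with -2.83 in marrow and -0.04 in blood. C3ar1 differed by 1.72 (0.0323), with 1.91 in marrow and 0.18 in blood. All 3 signs held without each library in turn, and the C3ar1 call did not. That call was also lost with edgeR (0.0507), with no filter (0.0522) and with only the compared libraries (0.0859).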

How the results depend on the processing

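Of 910 alternative values of 62 called gene results of the 8 members, 776 kept direction and call, 134 kept only direction and 0 reversed. Changing the filter or fitting the compared libraries alone leaves the log2 ratios as they were, so there direction could not change. The same holds for the replicate block where the groups compared have the same replicates. With only the compared libraries, the members called fell from 5 to 3 (blood against marrow Ly6C+), 3 to 1 (7-week Ly6Cint against Ly6C+), 2 to 0 (Ly6C- against Ly6Cint), 4 to 2 (blood Ly6C- against Ly6C+), 1 to 0 (marrow against blood Ly6C-), 3 to 0 and 6 to 0 (ko against wt Ly6C+ and Ly6Cint), 2 to 0 and 1 to 0 (wt Ly6Cint against Ly6C+, Ly6C- against Ly6Cint), 1 to 0 (8-week cMoP against MDP), 2 to 1 in blood and in spleen grafts of 24 h against before transfer, 1 to 0 (blood grafts 48 h against 24 h), 2 to 0 (spleen against blood grafts), 2 to 1 (host blood) and 1 to 0 (spleen grafts 36 h against 24 h). That fit has fewer samples to estimate the spread. Without a filter counts became 3 (blood against marrow Ly6C+), 1 (ko against wt Ly6C+), 0 (wt Ly6C- against Ly6Cint), 1 (host blood) and 0 (spleen grafts 36 h against 24 h, also with 5 RPM). With edgeR counts became 6 (blood against marrow Ly6C+), 3 (7-week blood Ly6C- against Ly6C+), 2 (7-week difference between tissues) and 4 (wt Ly6C- against Ly6C+). edgeR also gave 1 (ko against wt Ly6C+), 2 (wt Ly6C- against Ly6Cint) and 2 (8-week cMoP against MDP). The last was also 2 with a pseudocount of 4 RPM, quantile normalization or scaling to the listed genes. A pseudocount of 0.5 RPM gave 0 for wt Ly6C- against Ly6Cint, as did scaling to the listed genes, and 1 for host blood. Quantile normalization gave 2 for host spleen, and leaving out the 36 h grafts 0 for spleen against blood grafts. Smaller changes in counts under the settings other than edgeR are not listed. The cause was not tested.

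Leaving out 1 library gave, in the same order as the report's 7-week comparisons, 2 to 3, 3 to 4, 3 to 6, 2 to 3, 1 to 2, 2 to 5, 6 to 7 and 1 to 1 members, and 2 to 6 for the difference between tissues. It gave 0 to 1 and 2 to 4 for ko against wt, 0 to 0 for their difference, 0 to 2, 0 to 1 and 3 to 4 for the wt series, and 1 to 1 and 3 to 4 for 8-week marrow. Grafts gave 2 to 3 and 1 to 2 at 24 h, 0 to 2 and 0 to 3 for 48 h against 24 h, 0 to 0 for their difference, 2 to 3 for spleen against blood, and 0 to 1 and 0 to 0 for 36 h. Hosts gave 0 to 0 in blood, 1 to 1 in spleen and 0 to 0 between them. A lone library was assumed to vary like the other groups.

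Replicate numbers were not taken as pairs in the main fit. Deviations of like-numbered samples correlated over 0.1 in 6 of 25 (7-week, up to 0.38), 2 of 14 (knockout) and 0 of 14 pairs (transfer). With 2 libraries per group both pairs of a comparison give the same value. The 2 knockout pairs are both from wt Ly6C- against Ly6Cint (0.28). The C3ar1 difference between tissues was lost with a replicate block (adjusted p = 0.0515). The block gave 0 members for wt Ly6C- against Ly6Cint and 1 for spleen grafts of 48 h against 24 h. The block could not be fitted for grafts against cells before transfer or spleen against blood grafts, and edgeR and listed-gene scaling were not run on the transfer table. Quantile normalization moved the median log2 ratio of all genes by up to 0.56 (blood grafts of 24 h). C3ar1 rests on few reads in every table.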
